A study of Mus musculus with 138 samples.

Results

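The 10 genes described here, chosen by name from the ephrin and Eph receptor families and followed across the sutures of the mouse skull vault, were the ephrin-A ligands Efna2, Efna4 and Efna5, the ephrin-B ligands Efnb1 and Efnb2, the EphA receptors Epha3, Epha4 and Epha7, and the EphB receptors Ephb2 and Ephb3. They are 10 of the 55487 genes listed in the deposited files and 10 of the 19768 genes that were tested. All 10 passed the filter of at least 1 CPM (the count of a gene scaled to a fixed library total) in over 10% of the libraries. The study captured sutures of wild type C57BL/6J embryos by laser microdissection at the embryonic stages E16.5 and E18.5 and sequenced the RNA in bulk. From each embryo the suture mesenchyme (SM), the soft tissue between the bones, was taken apart from the osteogenic front (OF), the advancing edge of the bone. The coronal suture gave an SM, a frontal OF and a parietal OF, the lambdoid suture an SM, an interparietal OF and a parietal OF, the frontal suture an SM and a frontal OF, and the sagittal suture an SM and a parietal OF. These make 20 groups of 5 libraries, or 100 first libraries from 40 embryos, with each embryo used for 1 suture at 1 stage. Beside them stand 18 second libraries of the coronal suture, 16 libraries of complete E18.5 sutures and 4 single-cell matrices of the coronal suture, 2 at each stage. No embryo carried a mutation or received a treatment.

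Ephrins are ligands held at the cell surface and Eph receptors are receptor tyrosine kinases, so a signal passes only between cells that touch. Ephrin-A ligands are tied to the membrane by a lipid anchor and mostly bind EphA receptors, whereas ephrin-B ligands span the membrane and mostly bind EphB receptors, and binding can signal into the ligand-bearing cell as well as the receptor-bearing cell. The families are known for keeping cell populations apart at tissue boundaries, for guiding axons and for shaping vessels, and in the skull both EFNB1 and EFNA4 have been tied to coronal synostosis, the early closing of the coronal suture.

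First libraries held 7305627 to 34518477 counts, with medians per suture and stage from 8598662 in the lambdoid suture at E18.5 to 26943759 in the coronal suture at E16.5. The labels of SM and OF were checked with 14 osteoblast markers: 11 were higher in the OF than in the SM at all 8 pairs of suture and stage, Bglap at 7, and Col1a1 and Mmp13 at 6. Osteoblast RNA was present in the SM too, where the 14 markers summed to 6953 to 37094 CPM against 15167 to 63264 CPM in the OF. Their sum was higher in the SM at 1 of 8 pairs (log2 -2.28 to 0.01 over the pairs). The 9 markers of suture mesenchyme were summed higher in the SM at all 8 pairs. Chondrocyte markers were summed at 93.5 to 642 CPM in the SM and 59.8 to 303 CPM in the OF and were higher in the SM at all 8 pairs, and macrophage markers at 7 of 8. The 4 tested Schwann cell markers were higher in the SM at 7 of 8 as well (log2 -0.14 to 0.79), at sums of at most 48.3 CPM. The 6 neuron markers were higher in the SM at 3 of 8 (log2 -1.66 to 1.66), with sums of up to 214 CPM in the SM and 134 CPM in the OF, both in the E18.5 sagittal suture. The 3 tested skeletal muscle markers were higher in the SM at 5 of 8 (log2 -2.28 to 2.27), with sums of up to 339 CPM in the E16.5 lambdoid SM. The part of these cells in the results was not tested. Markers of dura mater were not summed in the captured regions. The coronal libraries of E16.5 stood apart by their share of mitochondrial counts, with a median of 36.3%, and so did replicate 5 of the frontal OF of the E18.5 frontal suture, with 52.3%. In bulk RNA, fewer cells of a type and less RNA per cell cannot be told apart.

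Per unit of transcript length, Efna5 was the most abundant member. Its level averaged 27.3 FPKM (fragments per kilobase of exon, scaled to library size; SD 6.48, n = 100 libraries), and it was above Ephb2, the next in order at 13 FPKM (SD 5.15), in 98 of 100 libraries. The order then ran Efnb2 (11.7 FPKM, SD 6.05), Epha3 (10.2, SD 4.31), Efnb1 (6.86, SD 3.37), Ephb3 (5.31, SD 3.45), Efna4 (4.85, SD 3.78), Epha7 (4.15, SD 2.86), Epha4 (3.69, SD 1.30) and Efna2 (2.75, SD 1.37). Below Efna5, no neighbours in this order differed by more than both of their SDs. The spread between groups was widest for Epha7, whose group means ran 9.01-fold from 1.23 FPKM in the E18.5 lambdoid interparietal OF to 11.1 FPKM in the E16.5 frontal SM, and narrowest for Efna5, which ran 1.98-fold from 18.7 FPKM in the E18.5 sagittal parietal OF to 37.1 FPKM in the E16.5 lambdoid SM.

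**Figure D1:**
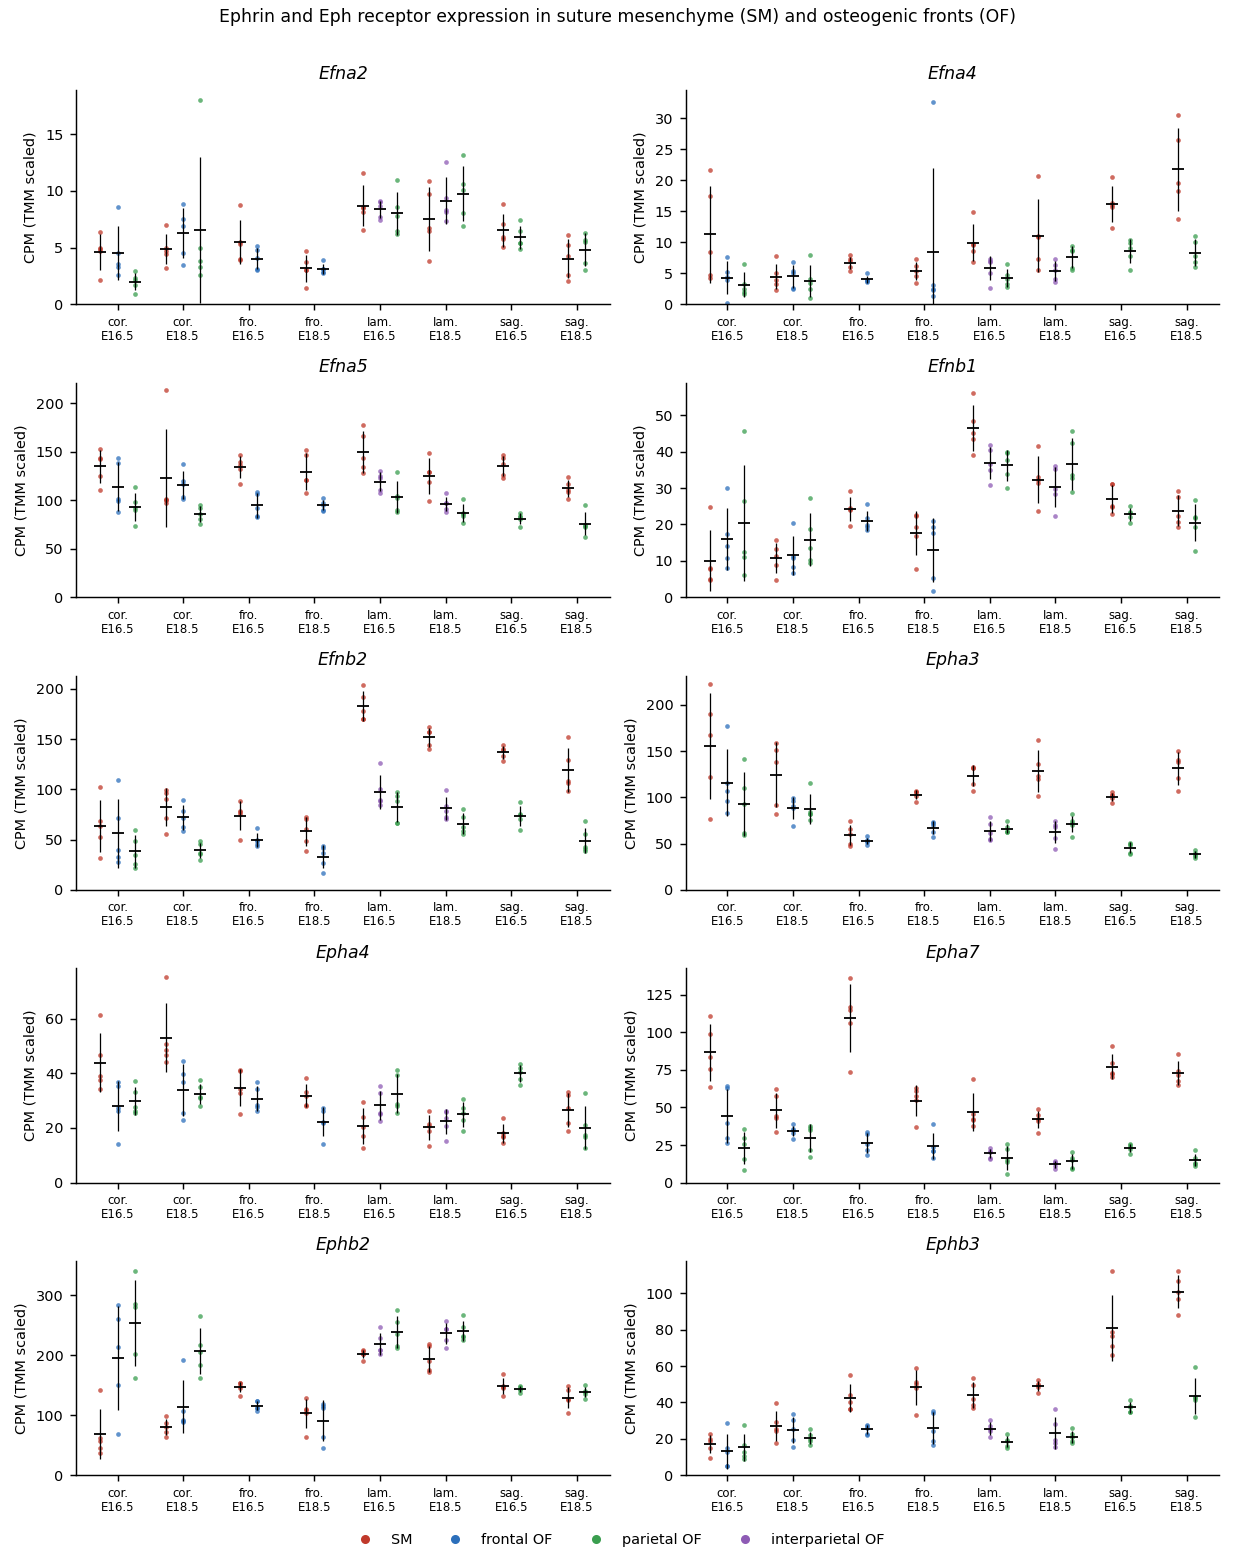
Level of the 10 ephrins and Eph receptors in each of the 100 first libraries, 1 panel per gene, in CPM after TMM scaling on the vertical axis and by suture, stage and region on the horizontal axis; points are libraries and bars are the mean ± SD of 5 libraries. Epha7 points of the SM lie above those of the OF in most sutures, and Ephb2 points of the coronal SM lie below those of the coronal parietal OF.

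The stretch of 250 bases before the annotated start is shown for the 3 members whose pattern the text returns to most: Epha7, the receptor with the largest difference between SM and OF, Efnb2, the ephrin-B ligand that was higher in the SM with it, and Ephb2, the receptor that was lower in the coronal SM. Sequences are from RefSeq on GRCm38.p6, 5′ to 3′ on the strand of the gene, and capitals mark matches to the E-box, CANNTG.
Epha7 (chr4:28812881-28813130, + strand): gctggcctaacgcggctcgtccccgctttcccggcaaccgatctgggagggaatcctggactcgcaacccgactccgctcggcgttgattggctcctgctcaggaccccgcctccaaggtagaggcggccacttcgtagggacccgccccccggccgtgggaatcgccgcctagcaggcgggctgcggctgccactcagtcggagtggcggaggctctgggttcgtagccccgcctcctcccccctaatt
Efnb2 (chr8:8661243-8661492, - strand): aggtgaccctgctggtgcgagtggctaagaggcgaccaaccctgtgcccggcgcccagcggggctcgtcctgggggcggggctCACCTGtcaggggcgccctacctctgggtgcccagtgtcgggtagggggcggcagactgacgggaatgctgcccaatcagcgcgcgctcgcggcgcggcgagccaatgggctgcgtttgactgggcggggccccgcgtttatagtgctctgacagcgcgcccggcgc
Ephb2 (chr4:136836013-136836262, - strand): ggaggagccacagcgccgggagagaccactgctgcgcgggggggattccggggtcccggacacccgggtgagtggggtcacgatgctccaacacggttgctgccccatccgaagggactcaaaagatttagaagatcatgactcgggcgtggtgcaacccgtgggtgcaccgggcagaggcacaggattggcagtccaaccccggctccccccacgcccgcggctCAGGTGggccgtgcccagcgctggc
All 10 members had a RefSeq promoter window of 300 bases, from 250 before the start to 50 after it. Searched on both strands, the E-box, the core letters bound by TWIST and related factors, was found in 3 of the 10 windows (Efnb2, Ephb2 and Ephb3) and in 72.3% of the 32851 windows of all genes. The RUNX core TGTGGT was found in 1 window (Efna4) and in 16.8% of all windows, and the GLI core TGGGTGG in 0 of 10 and in 9.3% of all windows. The bases shown for Epha7, Efnb2 and Ephb2 held 69.2%, 72.0% and 68.4% G or C.

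The first comparison asked how the SM differed from the OF beside it. Over 12 such comparisons and 10 members there were 59 calls at an adjusted p below 0.05 among 120 tests (edgeR quasi-likelihood test with the embryo as a block, Benjamini-Hochberg over all genes tested), against 19% of tests over all genes. Of these calls 53 were higher in the SM, where 8.16% of all tests were, and 6 were lower, where 10.9% were. The 10 genes were chosen with earlier results of these data known. Their shares, here and below, are thus a description and no test against all genes. Averaged over the 8 pairs of suture and stage, 7 of 10 members differed, against 54.9% of all genes, with 6 higher in the SM (27.6% of all genes) and 1, Ephb2, lower (27.4%); the median difference of the members was 0.65 on the log2 scale and that of all genes was 0.05. By comparison, 3 of 10 members were called against the coronal frontal OF at the earlier stage (27.2% of all genes) and 1 at the later (3.51%). Against the coronal parietal OF these counts were 9 (33.4%) and 6 (18%). They were 3 (8.85%) and 5 (11.3%) in the frontal suture, and 6 (18.4%) and 6 (26.1%) in the sagittal suture. In the lambdoid suture it was 4 (12%) and 6 (24.2%) against the interparietal and parietal OF of the earlier stage, and 5 (20.4%) and 5 (25%) at the later. With each suture and stage fitted on its own libraries, 2 of the 9 calls against the E16.5 coronal parietal OF were kept (6.61% of all genes) and 1 of the 3 against the frontal OF (3.77%). Outside the coronal suture the same fit kept 38 of 40 calls between SM and OF and added 12, and its share over all genes there was 32.1% in place of 18.3%. Calls by member were 11 of 12 for Epha7, 9 each for Efna5, Efnb2 and Epha3, 8 for Ephb3, 6 for Epha4, 3 for Ephb2, 2 for Efna4 and 1 each for Efna2 and Efnb1. Single comparisons had little power for small differences in simulated counts. For the sagittal E18.5 comparison, 36% of genes changed by 1 log2 unit were called and 5% of those changed by 0.5. The simulation gave all sutures the same spread and changed few genes, so these shares need not hold for the real sagittal libraries.

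**Figure D2:**
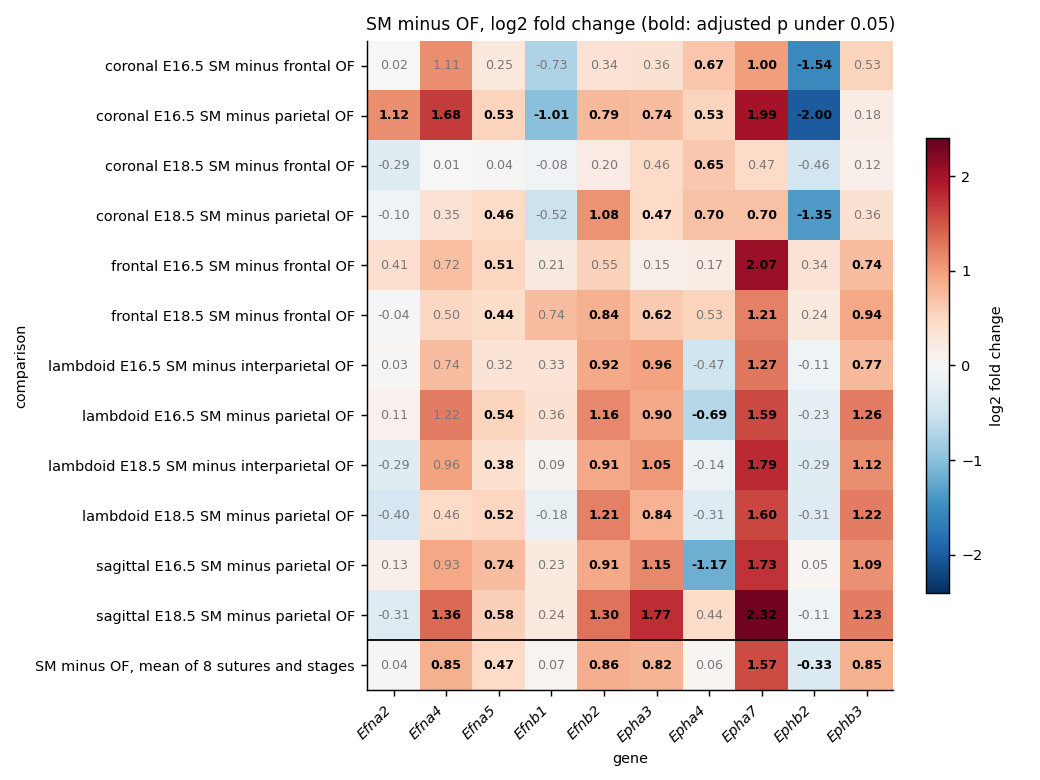
Difference between SM and OF (log2 fold change, colour and printed value) for the 10 members in the 12 comparisons and in their mean over 8 pairs of suture and stage; bold marks an adjusted p below 0.05 in edgeR. Epha7 is positive in every row, from 0.47 to 2.32, and Ephb2 is most negative in the coronal suture, down to -2.0.

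Among the ephrin-A ligands, Efna5, known for placing retinal axons (chr17:62604184-62881317, mm10), was higher in the SM by a modest amount in most comparisons. In the E16.5 sagittal suture its 5 SM libraries held 122, 143, 126, 147 and 137 CPM and its 5 parietal OF libraries 72.3, 80.0, 83.9, 82.3 and 86.3 CPM. The groups did not overlap, and the level was 1.67-fold higher in the SM (log2 0.74, SE 0.13, edgeR adjusted p = 1.46e-05). Averaged over sutures and stages it was 1.39-fold higher (log2 0.47, SE 0.04, edgeR adjusted p = 1.1e-14), and the SM library was above the OF library of its own embryo in 54 of 60 pairs, where an embryo with 2 fronts counts in both. The exception was the E18.5 coronal frontal OF, whose median of 116 CPM was above the SM median of 101 CPM. The SM was the higher there in 1 of 5 embryos (log2 0.04, 95% interval -0.22 to 0.29, edgeR adjusted p = 0.957). Some of its smaller single calls were lost when libraries were left out or fitted alone. In the E18.5 coronal suture the SM held 97.1, 213, 101, 100.4 and 101 CPM and the parietal OF 85.5, 80.5, 95.1, 91.4 and 75.1 CPM. One SM library, replicate 2, was far above the other SM libraries there. The edgeR difference of 0.46 (adjusted p = 0.00877) became 0.21 (adjusted p = 0.279) without the libraries of replicate 2. Fitted on their own libraries, the calls of Efna5 against the parietal OF of the coronal suture were lost at E16.5 (0.54, adjusted p = 0.133) and at E18.5 (0.51, 0.0556), and so was the call in the E18.5 frontal suture (0.43, 0.144). That against the E16.5 lambdoid interparietal OF was gained (0.35, 0.00788). The full-fit difference in the E18.5 frontal suture (0.44, edgeR adjusted p = 0.018) missed the threshold without replicate 3 (0.42, 0.0658), 4 (0.44, 0.0726) or 5 (0.47, 0.0552). The groups there did not overlap, at 108 to 151 CPM in the SM and 89.2 to 102 CPM in the OF. That against the E18.5 lambdoid interparietal OF (0.38, 0.0319) missed it without replicate 2 (0.31, 0.0558), 4 (0.36, 0.117) or 5 (0.42, 0.0605). A replicate number was left out of all groups at once, so power was lost with it.

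Efna4 (chr3:89333390-89338028) was low and varied widely. In the E18.5 sagittal suture the SM held 18.2, 26.6, 13.7, 19.6 and 30.6 CPM and the parietal OF 7.78, 6.83, 10.0, 11.0 and 6.04 CPM. All SM libraries were above all OF libraries, a 2.57-fold difference (log2 1.36, SE 0.48, edgeR adjusted p = 0.0291) that missed the threshold without replicate 1 (1.40, adjusted p = 0.0707), 2 (1.2, 0.134), 4 (1.5, 0.0615) or 5 (1.11, 0.14). In the E16.5 coronal suture the SM held 4.24, 4.66, 21.6, 8.37 and 17.4 CPM against 3.35, 1.92, 6.57, 2.49 and 1.62 CPM in the parietal OF. These groups overlapped, with the SM higher in 5 of 5 embryos and 3.20-fold higher on average (edgeR adjusted p = 0.006; 0.287 with the suture and stage fitted alone). The mean over sutures and stages was 1.80-fold higher in the SM (log2 0.85, SE 0.16, edgeR adjusted p = 7.53e-06). With each suture and stage fitted alone, 4 more calls of Efna4 as higher in the SM were made. These were in the E16.5 frontal suture (0.72, adjusted p = 0.0117) and sagittal suture (0.95, 1.72e-05), and against the E16.5 parietal (1.26, 0.0016) and E18.5 interparietal (0.99, 0.0123) OF of the lambdoid suture. In that order, these fits called 28.7%, 46.4%, 41.1% and 28% of all genes, against 8.85%, 18.4%, 24.2% and 20.4% in the full fit. Efna4 shares 168 bases, 10.5% of its exon length, with the antisense gene 4731419I09Rik, and counting did not use strand, so that reads of the pair cannot be told apart there.

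Efna2 (chr10:80179482-80190010), an ephrin-A that also acts in axon mapping, had no difference that carried across sutures: the mean was 0.04 on the log2 scale (95% interval -0.19 to 0.27, edgeR adjusted p = 0.827). The 1 call was in the E16.5 coronal suture, where the SM held 2.12, 4.96, 4.69, 4.85 and 6.41 CPM and the parietal OF 1.70, 2.17, 0.872, 2.95 and 2.33 CPM. Replicate 1 of the SM lay among the OF libraries. The difference of 1.12 (edgeR adjusted p = 0.012) was 1.06 (adjusted p = 0.0586) without replicate 5, and the adjusted p was 0.489 with the suture and stage fitted alone.

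Of the ephrin-B ligands, Efnb2, the ligand that marks arteries and that osteoclasts and osteoblasts exchange signals through (chr8:8617434-8661242), had a positive fitted difference between SM and OF in 12 of 12 comparisons and passed the test in 9. In the E16.5 lambdoid suture the SM held 170.2, 169.6, 178, 192 and 204 CPM, the interparietal OF 101, 88.1, 84.2, 126 and 89.8 CPM, and the parietal OF 88.6, 66.6, 67.0, 97.7 and 93.4 CPM. The SM overlapped neither front, and was 1.89-fold (log2 0.92, SE 0.21, edgeR adjusted p = 0.00143) and 2.24-fold (log2 1.16, SE 0.22, edgeR adjusted p = 2.19e-05) above them. In the E18.5 sagittal suture the SM held 107, 109, 152, 98.2 and 129 CPM and the parietal OF 68.4, 40.4, 55.5, 38.5 and 42.5 CPM. Here too there was no overlap, with a 2.46-fold difference (log2 1.30, SE 0.22, edgeR adjusted p = 2.47e-06). The mean over sutures and stages was 0.86 (SE 0.07, edgeR adjusted p = 1.75e-16), and the SM was the higher in 52 of 60 pairs of libraries from 1 embryo. The 10 endothelial markers, from a cell type that expresses Efnb2, were summed higher in the SM at 5 of the 8 pairs of suture and stage, by up to 0.86 on the log2 scale (E18.5 coronal), and lower at 3, down to -1.57 (E16.5 lambdoid). Their part in the difference of Efnb2 was not tested. At the pairs shown above they summed to 48.8 to 130.3 CPM in the SM and 157 to 386 CPM in the OF of the E16.5 lambdoid suture, and to 146 to 248 CPM and 252 to 399 CPM in the E18.5 sagittal suture. In the E16.5 sagittal suture, where Efnb2 was 1.88-fold higher in the SM (edgeR adjusted p = 0.000922), they were the higher in the SM, at 80.3 to 144 CPM against 43.6 to 110.3 CPM. The call in the E18.5 frontal suture (0.84, edgeR adjusted p = 0.0059) was lost without replicate 4 (0.84, 0.0523) and without replicate 5 (0.55, 0.189). That in the E16.5 coronal suture against the parietal OF (0.79, edgeR adjusted p = 0.00422) was lost without replicate 2 (0.38, 0.195) and without replicate 4 (0.63, 0.0827). Fitted on their own libraries both were lost, at adjusted p = 0.0927 and 0.237, and the E16.5 frontal suture was gained (0.56, 0.00185).

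Efnb1 (chrX:99136130-99148991), the ephrin-B tied to craniofrontonasal syndrome, did not pass the test on average (0.07, 95% interval -0.17 to 0.30, edgeR adjusted p = 0.661). Among the first libraries its levels were highest in the lambdoid suture, an order that the complete E18.5 sutures did not show (16.8 to 25.4 CPM in the lambdoid and 20.9 to 30 CPM in the sagittal suture). The E16.5 lambdoid SM held 45.1, 39.0, 48.4, 56.2 and 43.6 CPM, and the E16.5 coronal SM was low, with 7.68, 8.08, 5.03, 4.80 and 24.7 CPM. The coronal parietal OF held 11.1, 45.6, 26.5, 12.3 and 6.17 CPM at that stage, so that the groups overlapped. The difference there was -1.01 (edgeR adjusted p = 0.0435), and it missed the threshold without replicate 1 (-1.03, 0.0876), 2 (-0.52, 0.412), 3 (-0.57, 0.327) or 4 (-0.89, 0.192), and was -1.79 (1.51e-05) without replicate 5. With the suture and stage fitted alone the adjusted p was 0.469, and Efnb1 was called as higher in the E16.5 lambdoid SM against the interparietal OF (0.36, adjusted p = 0.0242) and the parietal OF (0.40, 0.00884).

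Epha7, an EphA receptor that can bring cells to attach or to part depending on its splice form (chr4:28813131-28967499), differed most between SM and OF among the members. In the E18.5 sagittal suture the SM held 74.4, 67.7, 65.1, 71.4 and 85.8 CPM and the parietal OF 21.6, 13.2, 12.6, 10.9 and 16.6 CPM. In the E16.5 frontal suture the SM held 73.9, 136, 117, 107 and 115 CPM and the frontal OF 18.1, 25.5, 32.4, 21.4 and 33.9 CPM. Neither pair of groups overlapped, and the SM was 4.98-fold (log2 2.32, SE 0.23, edgeR adjusted p = 3.35e-12) and 4.20-fold (log2 2.07, SE 0.23, edgeR adjusted p = 2.45e-10) higher. Over all sutures and stages the mean was 1.57, or 2.96-fold (SE 0.07, edgeR adjusted p = 3.19e-27), and the SM library was above the OF library of its embryo in 59 of 60 pairs. The 1 comparison that missed the threshold was the E18.5 coronal SM against the frontal OF (0.47, 95% interval 0.03 to 0.90, edgeR adjusted p = 0.334). Against the parietal OF of the same embryos the difference of 0.70 (edgeR adjusted p = 0.0202) was lost without replicate 1 (0.58, 0.127) and without replicate 2 (0.56, 0.148). The E16.5 call against the coronal frontal OF (1.00, edgeR adjusted p = 0.00044) was lost with the suture and stage fitted alone (0.98, 0.0851).

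Epha3, a receptor that binds ephrin-A5 with high affinity (chr16:63543534-63864175), was the EphA receptor of the highest level. The E18.5 sagittal SM held 139.9, 139, 151, 121 and 106 CPM and the parietal OF 43.4, 34.1, 37.8, 36.5 and 39.7 CPM. The SM was well clear of the OF, by 3.41-fold (log2 1.77, SE 0.16, edgeR adjusted p = 1.28e-13). The smallest difference was in the E16.5 frontal suture, with 74.0, 47.7, 60.0, 49.5 and 66.0 CPM in the SM and 51.8, 53.9, 52.5, 48.7 and 58.3 CPM in the OF. These overlapped, and the difference of 0.15 (95% interval -0.16 to 0.46) did not pass the test (edgeR adjusted p = 0.782). The mean over sutures and stages was 1.77-fold higher in the SM (log2 0.82, SE 0.05, edgeR adjusted p = 2.71e-21), with the SM higher in 56 of 60 pairs. The call in the E18.5 coronal suture against the parietal OF (0.47, edgeR adjusted p = 0.0286) was lost without replicate 1 (0.40, 0.0963) and without replicate 2 (0.37, 0.146), and that in the E18.5 frontal suture (0.62, 0.00425) without replicate 4 (0.56, 0.0505). The E16.5 call against the coronal parietal OF (0.74) had an adjusted p of 0.0843 with the suture and stage fitted alone.

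Epha4, a receptor that binds ephrins of both classes (chr1:77367185-77515088), was higher in the SM of the coronal suture and lower in the SM of the E16.5 sagittal and lambdoid sutures, and its mean over sutures and stages was 0.06 (95% interval -0.07 to 0.18, edgeR adjusted p = 0.494). In the E18.5 coronal suture the SM held 50.7, 75.3, 46.8, 48.4 and 44.2 CPM, the frontal OF 36.7, 23.0, 39.8, 44.6 and 25.3 CPM, and the parietal OF 34.9, 31.2, 28.1, 30.9 and 37.4 CPM. The SM was above the parietal OF in all libraries (1.62-fold, edgeR adjusted p = 0.00735) and just met the frontal OF (1.57-fold, edgeR adjusted p = 0.0478). Without replicate 2 the first of these was 0.53 on the log2 scale (adjusted p = 0.0836). The second missed the threshold without any of the 5 replicate numbers, from 0.39 (0.61) without replicate 2 to 0.78 (0.0549) without replicate 4. At E16.5 the coronal SM held 46.8, 37.7, 39.2, 61.4 and 34.2 CPM. It was above the frontal OF in 5 of 5 embryos (1.6-fold, edgeR adjusted p = 0.00727). It was also above the parietal OF in 5 of 5 (1.44-fold, edgeR adjusted p = 0.0314), a call lost without replicate 4 (log2 0.38, 0.224). With each suture and stage fitted alone, the calls of Epha4 against the coronal frontal OF were lost at E16.5 (adjusted p = 0.279) and E18.5 (0.155), and so was that against the E16.5 parietal OF (0.329). The same fits called Epha4 as higher in the E18.5 sagittal SM (0.45, 0.0261), where E16.5 had the opposite sign, and as lower in the E16.5 lambdoid SM against the interparietal OF (-0.44, 0.0392). In the E16.5 sagittal suture the order was turned: the SM held 16.7, 17, 14.6, 18.1 and 23.5 CPM and the parietal OF 35.9, 37.8, 42, 40.6 and 43.6 CPM. There was no overlap, and the SM was 2.25-fold lower (log2 -1.17, SE 0.20, edgeR adjusted p = 5.78e-06). The E16.5 lambdoid SM was lower than the parietal OF too (-0.69, edgeR adjusted p = 0.00701), a call lost without replicate 1 (-0.50, 0.137) and without replicate 5 (-0.48, 0.102).

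Of the EphB receptors, Ephb3, which with Ephb2 sorts cells along the crypts of the gut (chr16:21204755-21223305), had a positive fitted difference between SM and OF in 12 of 12 comparisons. It passed the test in all 8 of the lambdoid, sagittal and frontal sutures. The 4 coronal differences ran from 0.12 to 0.53 and did not pass. In the E18.5 sagittal suture the SM held 88.0, 106, 96.9, 112 and 101 CPM and the parietal OF 42.7, 59.3, 32.1, 43.2 and 41.4 CPM. In the E18.5 lambdoid suture the SM held 52.3, 49.8, 50.4, 48.5 and 45.2 CPM and the parietal OF 22.8, 20.9, 25.9, 17.6 and 18.9 CPM. Neither pair overlapped, and the SM was 2.34-fold (edgeR adjusted p = 6.66e-05) and 2.33-fold (edgeR adjusted p = 0.000104) higher. The frontal calls and that against the lambdoid E16.5 interparietal OF missed the threshold when some replicate numbers were left out. They were kept with each suture and stage fitted alone. At E16.5 neither pair of groups overlapped. The frontal SM held 36.2 to 54.9 CPM and the OF 22.4 to 27.8 CPM, and the lambdoid SM 36.9 to 53.4 CPM and the interparietal OF 21.3 to 30.6 CPM. At E16.5 the frontal difference of 0.74 (edgeR adjusted p = 0.0433) missed the threshold without replicate 1 (0.72, 0.186), 3 (0.73, 0.103), 4 (0.82, 0.098) or 5 (0.78, 0.0842). At E18.5 that of 0.94 (0.00697) missed it without replicate 4 (0.74, 0.139). The lambdoid one of 0.77 (0.027) missed it without replicate 1 (0.82, 0.0883), 4 (0.77, 0.112) or 5 (0.81, 0.0567). The mean over sutures and stages was 1.80-fold (log2 0.85, SE 0.08, edgeR adjusted p = 5.68e-14).

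Ephb2 (chr4:136647539-136835988) was the member that was lower in the SM on average, and its 3 calls were in the coronal suture. At E16.5 the coronal SM held 57.0, 142, 61.7, 38.0 and 46.1 CPM, the frontal OF 259.8, 213, 284, 151 and 69.3 CPM, and the parietal OF 162, 341, 280.4, 285 and 202 CPM. The SM lay below the parietal OF in all libraries and overlapped the frontal OF. It was lower than the one by 4.00-fold (log2 -2.0, SE 0.19, edgeR adjusted p = 6.9e-13) and than the other by 2.91-fold (log2 -1.54, SE 0.19, edgeR adjusted p = 3.09e-09). At E18.5 the coronal SM held 86.8, 99.4, 72.3, 80.2 and 63.8 CPM, the frontal OF 90.8, 191, 108, 91.8 and 89.4 CPM, and the parietal OF 216, 265, 184, 206 and 162 CPM. The SM was again clear of the parietal OF (2.56-fold lower, edgeR adjusted p = 4.7e-08) and was below the frontal OF in 5 of 5 embryos without passing the test (-0.46, 95% interval -0.82 to -0.11, edgeR adjusted p = 0.188; 0.0468 with the suture and stage fitted alone). Outside the coronal suture the 8 differences ran from -0.31 to 0.34 and none passed the test, but 3 were between groups that did not overlap. The lambdoid SM was below the parietal OF at E16.5 (191 to 209 against 212 to 274 CPM) and at E18.5 (172 to 218 against 225 to 267 CPM). The E16.5 frontal SM was above the OF (132 to 154 against 107 to 124 CPM). With each suture and stage fitted alone, the E18.5 lambdoid and E16.5 frontal differences passed the test (adjusted p = 0.0316 and 0.000977). In the E16.5 sagittal suture, where the groups overlapped, the SM held 148, 133, 169, 149 and 146 CPM and the parietal OF 144, 136, 148, 143 and 149 CPM. The mean over sutures and stages, -0.33 (SE 0.06, edgeR adjusted p = 4.98e-06), was 0.02 (edgeR adjusted p = 0.792) without the coronal libraries, a setting chosen after the data were seen.

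The second comparison tested whether the difference between SM and OF itself was another in the coronal suture than in the other 3. It was for 6 of 10 members, against 20.1% of all genes (edgeR interaction term, Benjamini-Hochberg over all genes). The spread was estimated over all 100 libraries, so these SEs and p-values need not hold for the spread of the coronal suture. With the coronal suture fitted on its own libraries, 20 of its 30 calls of members were lost. The interaction itself cannot be fitted in that way. The coronal difference was the lower for Ephb2 (by -1.35, SE 0.14, adjusted p = 1.38e-11), Efnb1 (-0.87, SE 0.28, 0.0172), Ephb3 (-0.73, SE 0.18, 0.00212), Epha7 (-0.70, SE 0.16, 0.00103) and Epha3 (-0.42, SE 0.12, 0.00577). It was the higher for Epha4 (0.78, SE 0.14, 3e-05). Epha7 and Epha3 were thus higher in the SM by less in the coronal suture than in the mean of the other 3. For Epha3 the smallest single difference was still in the E16.5 frontal suture. The interaction of Efnb1 missed the threshold without replicate 1 (-0.80, 0.0852), 2 (-0.67, 0.142) or 4 (-0.80, 0.111). Among the members not called, the 95% interval was -0.66 to -0.04 for Efnb2, -0.39 to -0.02 for Efna5, -0.77 to 0.61 for Efna4 and -0.30 to 0.71 for Efna2; Efna5 passed without replicate 2 (-0.31, adjusted p = 0.00717). Since the E16.5 coronal libraries differed from the rest in mitochondrial share, the fit was run again with the second coronal libraries alone. Their median mitochondrial share was 14.5% at E16.5, and this fit too was chosen after the data were seen. The second libraries came from the same embryos, and the other sutures kept their first libraries, so this was no test on new embryos. The coronal SM had a parietal OF beside it in 3 embryos at each stage, and a frontal OF in 3 at E16.5 and 2 at E18.5. Ephb2 (-0.80, edgeR adjusted p = 1.35e-05), Epha7 (-0.89, 0.000228), Epha3 (-0.45, 0.00434), Efnb1 (-1.04, 0.00711) and Epha4 (0.54, 0.0107) were called in this fit too, and Ephb3 was not (-0.36, 0.218).

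**Figure D3:**
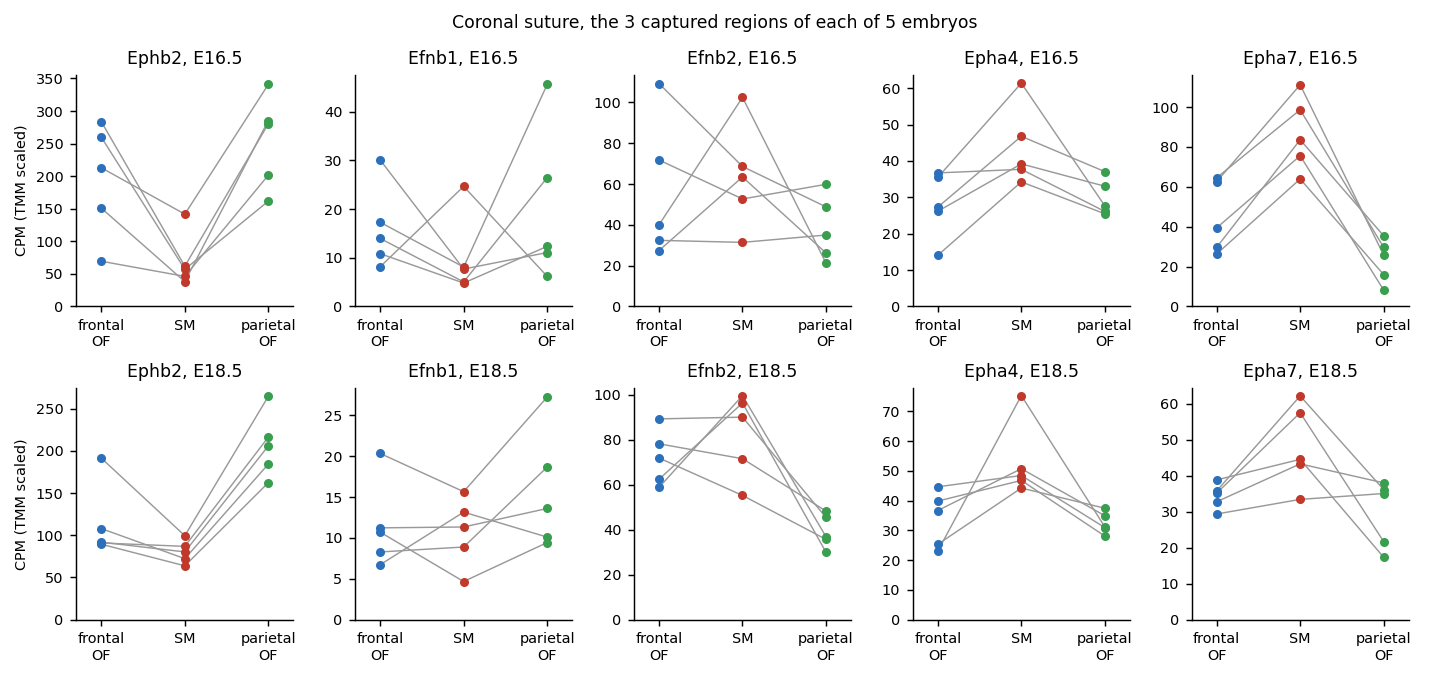
Levels of Ephb2, Efnb1, Efnb2, Epha4 and Epha7 (CPM, vertical axis) in the frontal OF, SM and parietal OF of the coronal suture, with a line joining the 3 libraries of each of 5 embryos, at E16.5 in the upper and E18.5 in the lower row. The Ephb2 line of each embryo dips at the SM against the parietal OF, and the Epha4 line of each embryo peaks there.

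The second coronal libraries, 9 at each stage, came from the same embryos and regions; how they differed from the first is not given in the labels. Epha7 was lower in the second library than in the first in 9 of 9 cases at E16.5 (median log2 difference -1.23) and 9 of 9 at E18.5 (-0.65), and Efna2 was higher in 9 of 9 at either stage (1.31 and 0.73). Levels in the coronal suture thus moved with the library set. For Ephb2, the SM was below the parietal OF in 3 of 3 embryos at each stage in both sets (log2 difference in the second set: -1.52 to -0.44 at E16.5 and -1.38 to -0.40 at E18.5). Likewise, in the embryos that have both libraries, Epha7 was higher in the SM than in either front in both sets (2 of 2 embryos against the frontal OF at E18.5 and 3 of 3 in the other comparisons). The E18.5 difference of Epha4 from the frontal OF was not kept: it was higher in the SM in 1 of 2 embryos in the second set.

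The third comparison set the fronts of a suture against each other. There were 5 calls in 40 tests of members, against 4.08% over all genes. In the coronal suture they belong to the frontal bone, which derives from neural crest, and the parietal bone, which derives from mesoderm. At E18.5, 3 of 10 members differed, against 6.19% of all genes. Efnb2 was higher in the frontal OF, at 71.8, 62.4, 58.8, 89.2 and 78.1 CPM against 35.7, 29.9, 36.9, 45.4 and 48.3 CPM in the parietal OF. These groups did not overlap (log2 0.88, SE 0.21, edgeR adjusted p = 0.00507). Ephb2 was lower in the frontal OF (-0.89, SE 0.18, edgeR adjusted p = 0.000722) in 5 of 5 embryos, with replicate 2 of the frontal OF inside the range of the parietal OF. Efna5 was higher in the frontal OF (0.43, edgeR adjusted p = 0.0365) with no overlap, but missed the threshold without replicate 1 (0.50, 0.052), 3 (0.43, 0.115) or 5 (0.42, 0.12) and with the suture and stage fitted alone (0.48, 0.135). At E16.5, 2 of 10 members differed, against 9.14% of all genes. Epha7 held 64.5, 26.3, 29.6, 39.4 and 62.6 CPM in the frontal OF and 29.6, 16, 35.4, 8.15 and 25.7 CPM in the parietal OF. It was higher in the frontal OF with overlap (0.99, edgeR adjusted p = 0.00344). Efna2 was higher there too (1.10, 0.0464), but missed the threshold without replicate 1 (1.19, 0.0738), 2 (1.2, 0.0595), 3 (0.63, 0.314) or 5 (1.17, 0.0893). With the E16.5 coronal libraries fitted alone, the calls of Epha7 (1.02, adjusted p = 0.917) and Efna2 (1.14, 0.999) were both lost, and 0 of all genes were called between these fronts. The second libraries held both fronts of 3 embryos at E16.5 and of 2 at E18.5. In them alone, Ephb2 differed at E18.5 (-0.79, edgeR adjusted p = 0.0215) and Epha7 at E16.5 (1.03, 0.0256), and Efnb2 did not at E18.5 (0.54, 0.143). Between the interparietal and parietal fronts of the lambdoid suture, 0 of 10 members differed at either stage in edgeR, with 0 at an unadjusted p under 0.05 and 0 in DESeq2 and limma-voom, against 0.966% of all genes at E16.5 and 0.0152% at E18.5. Fitted alone, Ephb3 was called at E16.5 (0.49, edgeR adjusted p = 0.0413), beside 6.03% of all genes.

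The fourth comparison set E18.5 against E16.5 in each region. Embryos and litters differ between the stages, so that stage and litter cannot be told apart, and in the coronal suture neither can stage and the quality of the libraries. There were 9 calls in 100 tests of members, against 8.57% over all genes. In 5 of the 10 regions 0 members were called by edgeR, DESeq2 or limma-voom. These were the frontal OF of the frontal suture (4.34% of all genes called by edgeR, 3 members at an unadjusted p under 0.05), the sagittal SM (1.12%, 3 members), the lambdoid interparietal OF (0.288%, 2 members), the lambdoid SM (2.96%, 0 members) and the lambdoid parietal OF (0.986%, 0 members). Stages were also fitted on the libraries of each suture alone, without a block. Efnb1 was then called in the lambdoid SM (-0.52, edgeR adjusted p = 0.0205), beside 8.85% of all genes. Epha3 was called in the sagittal SM (0.39, 0.0103), beside 7.7%. In the sagittal parietal OF, Efnb2 (-0.59, 0.00423) and Epha7 (-0.64, 0.00224) were called as lower at E18.5, beside 11.9% of all genes in either direction. In the frontal SM, where 2.33% of all genes were called, Epha3 was 103 ± 4.86 CPM at E18.5 and 59.4 ± 11.1 CPM at E16.5 (SD, n = 5 each). It was higher at E18.5 (log2 0.79, edgeR adjusted p = 0.00379; 0.68 and 0.0786 without replicate 4). Epha7 was 54.6 ± 10.5 CPM there at E18.5 and 109.7 ± 22.7 CPM at E16.5. It was lower at E18.5 (-1.01, edgeR adjusted p = 0.0118; -0.80 and 0.172 without replicate 2, -1.0 and 0.0712 without replicate 3). Neither gene overlapped between the stages. In the sagittal parietal OF, where 1.6% were called, Epha4 was 20.2 ± 7.76 CPM at E18.5 and 40.0 ± 3.13 CPM at E16.5, with no overlap (-0.99, edgeR adjusted p = 0.00208; -0.92 and 0.0697 without replicate 3, -0.83 and 0.0766 without replicate 4). The sagittal SM held 26.6 ± 6.26 CPM at E18.5 and 18 ± 3.35 CPM at E16.5 without passing the test (0.57, 95% interval 0.15 to 0.98, edgeR adjusted p = 0.286). The change with stage in the difference between SM and OF, averaged over the 4 sutures, passed the test for 1 of 10 members, Epha4 (0.60, SE 0.13, edgeR adjusted p = 0.0081), against 0.875% of all genes, and missed it without replicate 1 (0.56, 0.0998) and without replicate 4 (0.59, 0.0722). The other 6 calls were in the coronal suture, where 27.1% of all genes were called in the SM, 24.4% in the frontal OF and 20.6% in the parietal OF. In the fit of the coronal libraries of both stages alone, 0 of these 6 were kept, with edgeR adjusted p from 0.0837 to 0.332. That fit called 6.75% of all genes in the SM, 4.7% in the frontal OF and 2.75% in the parietal OF. Efna4 (-1.33, edgeR adjusted p = 0.0293) and Epha7 (-0.85, 0.00707) were lower at E18.5 in the coronal SM, and both had the opposite sign in the second libraries alone (0.63 and 0.28). Without single replicates, Efna4 there was -1.01 (0.11), -1.25 (0.0991) and -1.05 (0.0916) without replicates 3, 4 and 5, and Epha7 -0.65 (0.0781) without replicate 5. Ephb3 was higher at E18.5 in the SM (0.65, edgeR adjusted p = 0.0399; 0.51 and 0.23, 0.67 and 0.0638, and 0.53 and 0.159 without replicates 1, 3 and 5) and in the frontal OF (0.91, 0.00474; 0.72 and 0.0686 without replicate 1, 0.70 and 0.0668 without replicate 3). Ephb2 was lower at E18.5 in the frontal OF (-0.77, edgeR adjusted p = 0.00432; -0.62 and 0.0659 without replicate 1, -0.58 and 0.0853 without replicate 3), and Efna2 was higher in the parietal OF (1.70, 0.000206; 0.90 and 0.0813 without replicate 2).

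The other Eph and ephrin genes were 12, of which 10 were tested. Averaged over sutures and stages, 6 of these were higher and 2 lower in the SM, beside 27.6% and 27.4% of all genes. Their calls in the 12 single comparisons, given as a count of 12, stand beside 19% of tests over all genes. Epha8 differed most: the E16.5 sagittal SM held 0 to 0.128 CPM and the parietal OF 6.38 to 8.92 CPM, and the mean difference was -4.58 (SE 0.33, edgeR adjusted p = 1.19e-18), with calls in 11 of 12 comparisons; at levels this near 0 a fitted difference depends on the prior count. Epha8 (chr4:136929419-136956816) lies near Ephb2 on chromosome 4. Epha2, a receptor of ephrin-A1, was lower in the SM as well (-1.84, SE 0.14, edgeR adjusted p = 1e-17, 9 of 12). Higher in the SM were Epha5 (1.72, SE 0.12, edgeR adjusted p = 2.77e-19, 8 of 12), Efnb3 (0.89, SE 0.08, 1.76e-15, 9 of 12) and Ephb4, the receptor of veins that binds Efnb2 (0.65, SE 0.07, 2.67e-12, 7 of 12). With at most 1 single call each, so were Efna3 (0.65, 0.0142), Epha1 (0.62, 0.0118) and Ephb6 (0.59, 0.0104). Receptors of 1 class thus went both ways, with Epha3, Epha5 and Epha7 higher and Epha2 and Epha8 lower in the SM. Epha5 was low in the coronal suture, where the E18.5 SM held 2.51 to 7.73 CPM against 48.4 to 62.8 CPM in the E18.5 lambdoid SM. The part of the library set in this was not tested.

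Genes that act downstream of Eph receptors or cut ephrins, 42 in number and all tested, were called in both directions, with 13 higher and 19 lower in the SM on average and a median of -0.02. The 5 with the smallest adjusted p were all lower in the SM: Chn2, a chimaerin that switches off Rac (-2.50, SE 0.12, edgeR adjusted p = 4.2e-27), Adam12, a metalloprotease (-1.12, SE 0.06, 1.4e-26), the kinase Fyn (-1.12, SE 0.06, 5.25e-25), the small GTPase Rhoa (-0.53, SE 0.04, 4.46e-20) and its exchange factor Vav2 (-1.26, SE 0.09, 1.69e-18). The share called, 76.2%, stands beside 54.9% of all genes.

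Likeness of pattern was measured as Pearson's r over the 100 first libraries, on log2 CPM less the mean of the embryo, against the 11393 genes with a mean of at least 5 CPM, as a description; the points share embryos and the difference between SM and OF. Epha7 was most like Cped1 (0.933), Gria3 (0.924) and Csrp2 (0.923), and Epha3 was most like Ghr (0.904), Smoc2 (0.901) and Thbs2 (0.900). Efnb2 was most like Asap3 (0.916), Ltbp2 (0.910) and Mn1 (0.907), and Efna5 like Msx2 (0.887), Fbxl7 (0.872) and Gria3 (0.860). Gria3 stood in the lists of both Epha7 and Efna5.

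Complete E18.5 sutures were captured without parting SM and OF, and are labelled as normalization controls. Each suture has 4 libraries, 1 in each of the sets coded C, IF, L and S, and all carry replicate number 1. Whether the 4 are separate samples is not given, so their values are given with no test. The same codes name the sutures in the labels of the captured libraries, so suture and library set may not be separable there. Epha7 ran from 15.7 to 20.7 CPM in the coronal, 71.0 to 87.1 CPM in the frontal, 99.1 to 114 CPM in the lambdoid and 124 to 147 CPM in the sagittal suture. No library of 1 suture overlapped those of another. The captured regions at E18.5 had other levels and another order: over SM and OF, Epha7 ran from 17.3 to 62.1 CPM in the coronal, 16.46 to 62.8 CPM in the frontal, 8.91 to 49 CPM in the lambdoid and 10.9 to 85.8 CPM in the sagittal suture. The complete frontal, lambdoid and sagittal sutures were thus above all of their captured parts, and no order of sutures is read from either set. Efnb2 held 88.5 to 109 CPM and Epha3 99.3 to 125 CPM in the sagittal suture, above their ranges of 44.3 to 66.9 CPM and 58.0 to 96.8 CPM in the other 3. For Efnb2 this order too was another in the captured SM at E18.5, at 152 ± 9.40 CPM in the lambdoid and 119 ± 21.9 CPM in the sagittal suture (SD, n = 5 each). For Epha3 the captured SM at E18.5 held 131 ± 17.5 CPM in the sagittal, 129 ± 22.4 CPM in the lambdoid, 124 ± 35.2 CPM in the coronal and 103 ± 4.86 CPM in the frontal suture. Its lowest captured group was the E18.5 sagittal parietal OF, at 38.3 ± 3.49 CPM. Epha4 lay in 1 narrow range, from 44.7 to 60.6 CPM over all 16 libraries.

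**Figure D4:**
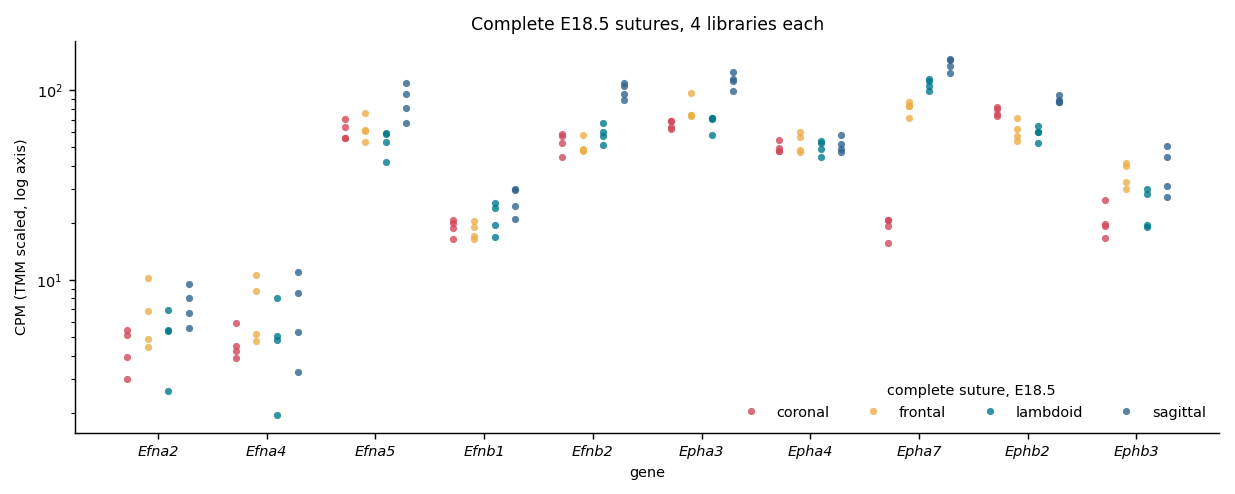
Levels of the 10 members (CPM, log axis) in the 16 libraries of complete E18.5 sutures, 4 points per suture, each from another library set. Epha7 points lie at 15.7 to 20.7 in the coronal and 124 to 147 in the sagittal suture, and Epha4 points between 44.7 and 60.6.

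Cells of the coronal suture were read from the 4 matrices, 2 libraries at each age, made after the membranes above and below the bone were removed as far as possible. Of 7639 barcodes, 4840 passed the filters (472 and 340 at E16.5, 2449 and 1579 at E18.5), with median counts of unique molecular identifiers (UMIs) per cell of 2504 and 2123 in the E16.5 libraries and of 18657 and 7134 in those of E18.5. Age and the version of the droplet chemistry cannot be told apart, so no comparison between the ages is made. Between the libraries of an age, 1 barcode was shared at E16.5 and 5 at E18.5. Clusters were made without the Eph and ephrin genes and named from marker lists. Because they come from the same cells, no test is given, and intervals are exact Poisson intervals at 95% that cover counting error only. Doublets were not called. Levels are CPM of the summed UMIs, for the first and then the second E18.5 library, and the macrophage-like cells serve as the background of free RNA.

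Efnb2 was highest in endothelial-like cells, at 108 (90.7 to 127) and 168 (128 to 217), and at most 28.8 in the other clusters. It held 25 and 26.6 in ectocranial mesenchyme-like cells and 9.58 and 16.9 in suture mesenchyme-like cells. Macrophage-like cells held 4.37 in the first library and 0 UMIs in the second, where a floor of 3 UMIs stands at 6.47. Efna5 was broad among mesenchymal cells. It held 128 and 210.3 in an unnamed cluster led by Sostdc1 and Ccdc3, 117 and 184 in osteoblast-like cells with Gpx3, Cp and Mmp13, and 15 and 29.5 in osteoblast-like cells with Ibsp and Bglap, against 9.02 and 8.63 in macrophage-like cells. The osteoblast-like cells with Ibsp and Bglap thus held less Efna5 than those with Mmp13. Efnb1 was spread more evenly, with 93.5 and 88.9 in an unnamed cluster led by Igfbp6 and Mfap5 and 45.2 and 48.6 in the osteoblast-like cells with Ibsp. Efna4, at 19.1 and 20.2 in ectocranial mesenchyme-like cells, and Efna2, at 31.8 and 29.3 in the Sostdc1 cluster, were low throughout. Macrophage-like cells held 7.11 and 2.16 of Efnb1, 3.28 and 2.16 of Efna4, and 1.64 and 6.47 of Efna2.

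Among the receptors, Epha7 was highest in the Igfbp6 cluster, at 45.3 (36.5 to 55.5) and 88.9 (55.7 to 135), followed by dura mater-like cells at 26.1 and 43.6. The Igfbp6 cluster was left without a name, but had 7 markers of dura mater and 3 of hypodermis raised. Epha7 held 7.14 and 8.90 in suture mesenchyme-like cells and 2.78 and 1.39 in osteoblast-like cells with Ibsp. The background in macrophage-like cells was 1.09 (0.298 to 2.80) and then 0 UMIs, where a floor of 3 UMIs stands at 6.47. The values in the osteoblast-like cells lie within that background. Epha3 was highest in ectocranial mesenchyme-like cells (58.5 and 111) and dura mater-like cells (61.2 and 88.9). Epha4 was highest in dura mater-like cells (56.5 and 73.8) and the Sostdc1 cluster (48.5 and 53.6), and Ephb3 in the Igfbp6 cluster (30.2 and 44.4) and dura mater-like cells (31.1 and 23.5). In osteoblast-like cells with Ibsp these receptors held 9.39 and 15.6 (Epha3), 3.13 and 2.08 (Epha4) and 4.87 and 4.51 (Ephb3). Macrophage-like cells of the first library held 2.19, 4.37 and 3.55, and those of the second are not set beside them. Epha4 was thus not above background in the first library, and Ephb3 was close to it. Ephb2 stood well above that background in the same osteoblast-like cells, at 34.8 (28.3 to 42.3) and 30.2 (24.2 to 37.3), beside 24.2 (20.6 to 28.2) and 31.2 (24.3 to 39.4) in suture mesenchyme-like cells, 59.7 and 71.0 in ectocranial mesenchyme-like cells, and 3.55 and 6.47 in macrophage-like cells.

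**Figure D5:**
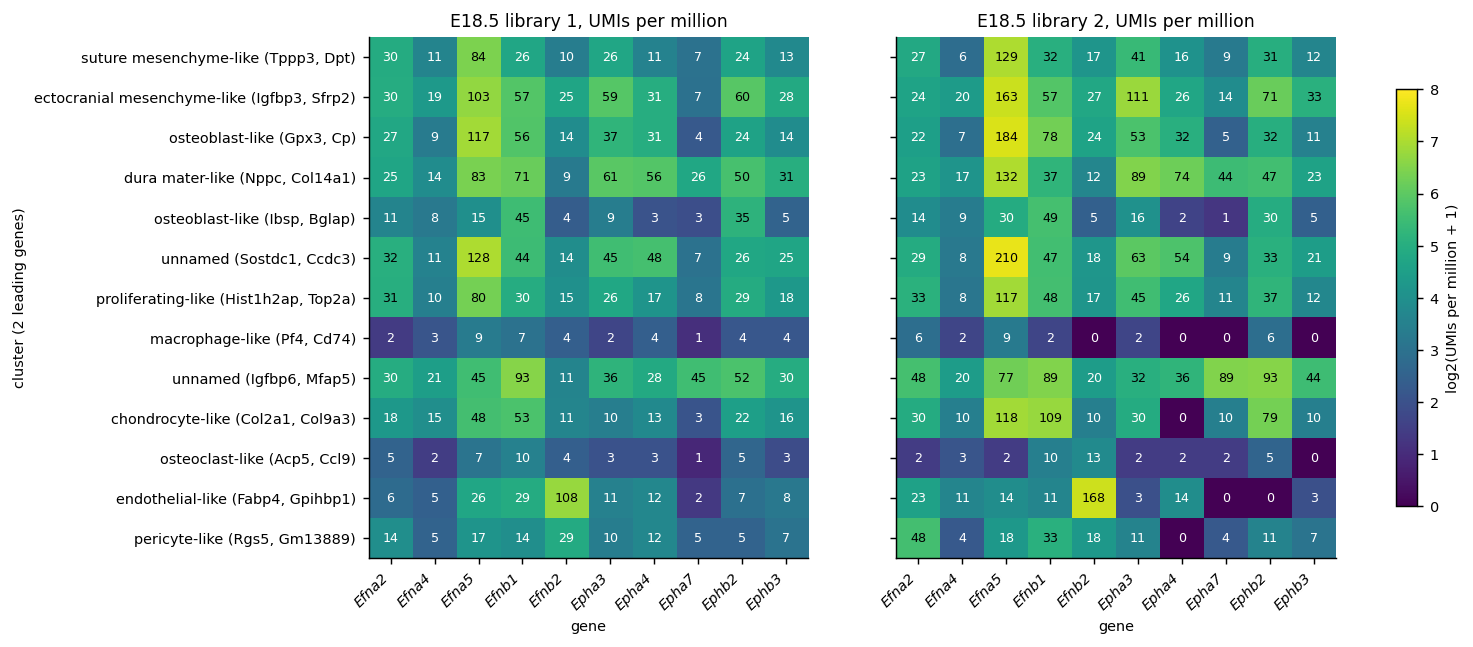
Levels of the 10 members in 13 clusters of coronal cells at E18.5, in CPM of UMIs (colour and printed value), for each of the 2 libraries; the erythroid-like cluster is not shown. Efnb2 stands out in the endothelial-like row, and Epha7 in the dura mater-like row and that of the unnamed cluster led by Igfbp6. The osteoblast-like row with Ibsp is low for Epha3, Epha4, Epha7 and Ephb3 and not for Ephb2.

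At E16.5, with fewer cells and UMIs, the same measure gave 102 (55.9 to 172) and 66.2 (24.3 to 144) for Efnb2 in endothelial-like cells. Efna5 held 149 and 146, and Epha3 114 (74.3 to 167) and 73.1 (38.9 to 125), in a cluster led by Tnn. That cluster was named osteoblast-like, but had 4 markers each of osteoblasts and suture mesenchyme raised, with Hhip among its leading genes. Epha7 held 52.6 (19.3 to 115) and 23.1 (2.80 to 83.5) in dura mater-like cells. No background is set beside the E16.5 values, and the second Epha7 value rests on few UMIs. Efnb2 also held 82.5 (53.4 to 122) in hypodermis-like cells, of which 122 came from the first library and 2 from the second.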

How the data were processed

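RNA of laser-captured suture regions was extracted with the Arcturus Picopure kit, amplified with Ovation RNA-Seq System V2 and made into Nextera XT libraries. Per the submitters' notes and the methods of the study, reads were trimmed with cutadapt, aligned to mm10 with STAR 2.5.3a and counted per gene without strand by featureCounts 1.6.4 on GENCODE annotation. The deposited values used here are the raw gene counts of these libraries and the UMI counts per cell and gene of the single-cell matrices. A deposited table of the authors' own log2 ratios between groups was not used.

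The 10 genes and the gene lists were chosen with earlier results of these data known. Groups came from the labels, and libraries of 1 embryo were joined by the litter number in the labels. A gene was kept where over 10% of first libraries reached 1 CPM (19768 genes). Counts were scaled by TMM and fitted in 1 model of 100 libraries with edgeR 4.0.16 (quasi-likelihood, two-sided, Benjamini-Hochberg over all genes tested, threshold 0.05) in R 4.3.3, with the embryo as a block except between stages. The median correlation of residuals within an embryo was 0.0604, against -0.0216 between embryos. P-values between regions measure how the differences within an embryo vary over embryos, and those between stages measure the spread between embryos. Both spreads were estimated over all 100 libraries, so they need not be those of a single suture and stage. FPKM came from the TMM-scaled counts and the gene lengths of the files. The 10 members are given in every comparison. Of the other Eph and ephrin genes, those called on average or in at least 6 of 12 comparisons are named, and of the effectors, the 5 with the smallest adjusted p. The fit was tested on simulated counts of 3954 genes. DESeq2 1.42.0, limma-voom (limma 3.58.1), other scaling, no filter on low counts, second coronal libraries, single sutures and leaving out replicates were alternatives. Cells with over 800 genes and within 3 median absolute deviations were clustered per age with Seurat 5.3.0 on 13 principal components at resolution 0.8. Depth was 7305627 to 34518477 counts per first library.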

Additional observations from a re-analysis of the deposited data

Results flagged for a closer look

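Among the 200 sets of 5 libraries (10 genes in 20 groups), 9 had 1 library far from the other 4, which is 4.5%, and chance alone gives about 5% by the Dixon test used. Replicate 2 of the E18.5 coronal suture was that library 3 times: Efna5 was 213 CPM in its SM (others 97.1 to 101 CPM), Epha4 was 75.3 CPM in its SM (others 44.2 to 50.7 CPM) and Ephb2 was 191 CPM in its frontal OF (others 89.4 to 108 CPM). Epha3 was 116 CPM in replicate 4 of the E18.5 coronal parietal OF (others 75.1 to 84.0 CPM). The other 5 were in the frontal suture. Efna4 was 5.07 CPM in replicate 1 of the E16.5 frontal OF (others 3.61 to 3.93 CPM) and 32.7 CPM in replicate 5 of the E18.5 frontal OF (others 1.40 to 3.07 CPM), the library with 52.3% of its counts in mitochondrial genes. Efnb2 was 49.4 CPM in replicate 1 of the E16.5 SM (others 75.6 to 88.2 CPM). In the E18.5 SM, Efnb1 was 7.73 CPM in replicate 3 (others 16.8 to 22.7 CPM) and Epha7 was 36.7 CPM in replicate 2 (others 54.7 to 62.8 CPM).

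The difference between SM and OF was called as different in the coronal suture for 6 members, against 20.1% of all genes (edgeR interaction, log2): Efnb1 by -0.87, Epha3 by -0.42, Epha4 by 0.78, Epha7 by -0.70, Ephb2 by -1.35 and Ephb3 by -0.73. The call of Efnb1 was lost when some single replicates were left out, and that of Ephb3 with second coronal libraries alone. Between E18.5 and E16.5 the difference was called for Epha4, by 0.60, against 0.875% of all genes. This call too was lost when some single replicates were left out.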

How the results depend on the processing

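Of 87 calls of members, 56 were kept whichever replicate number was left out, 31 were lost at least once and 0 changed sign. The calls between SM and OF ran from 47 to 57 (59 with all libraries), the averaged calls from 7 to 7, those between fronts from 3 to 5, those between stages from 5 to 10, those of the coronal suture less the others from 5 to 7, and those of the change of the SM to OF difference with stage from 0 to 1. DESeq2 kept 87 of 87, median-ratio scaling 86, limma-voom 83 and no filter on low counts 80. With second coronal libraries in place of the first, 77 were kept and stage calls were 5 in place of 9. With second coronal libraries alone 71 were kept, and the sign changed for Efna4 (0.63) and Epha7 (0.28) between stages in the coronal SM and for Epha4 in the E18.5 coronal SM against the frontal OF (-0.090); the cause was not tested. Without the coronal suture the mean of Ephb2 was 0.017, and the change with stage had 2 calls in place of 1, with Epha3 (0.35, edgeR adjusted p = 0.038) added. Fitting on fewer libraries moved most. Regions were fitted with each suture and stage alone and the replicate block, and stages with each suture alone and no block. Of 73 calls that can be so fitted, 51 were kept, 22 were lost and 18 were added. Of these, 20 of the lost and 1 of the added were in the coronal suture, and calls between fronts were 3 in place of 5. Counts over all genes moved more. In this last fit, 0 genes in place of 1806 were called between the E16.5 coronal fronts, 746 in place of 5380 in the E16.5 coronal SM against the frontal OF and 1307 in place of 6601 against the parietal OF, and 5669 in place of 1750 in the E16.5 frontal suture. For the change with stage, 173 genes were called in the full fit, 405 by DESeq2, 354 without the filter, 473 without the coronal suture and 67 without replicate 4.

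Libraries of 1 embryo are paired by the embryo itself, so the replicate block is part of the fit. Without the block the calls between SM and OF were again 59, and of 78 calls that can be so fitted 77 were kept; the one lost was Epha4 in the E18.5 coronal SM against the frontal OF (edgeR adjusted p = 0.0634). No paired analysis was possible between stages because the embryos differ. In simulated counts the averaged comparison called 50% of genes changed by 0.5 log2 units and 3 single comparisons called 0% to 6%. Small differences in single comparisons were thus often not detectable with the same simulated spread in all sutures. Of the single-cell values checked, 56 of 56 alternatives moved by less than their counting interval, and 4 had no such cluster.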
